A study of Mus musculus with 30 samples.

Results

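The genes described here encode the nuclear subunits of the oxidative phosphorylation complexes, the respiratory chain and the ATP synthase of the inner mitochondrial membrane. They were taken by symbol from the table that pairs the array's probe sets with genes: Nduf with a, b, c, s or v and a number (complex I), Sdha to Sdhd (complex II), Uqcr (complex III), Cox4 to Cox8 (complex IV) and Atp5 (complex V, the ATP synthase). Only probe sets that name 1 gene were used, and a gene with several was represented by the probe set with the highest mean over all 30 arrays. This gave 81 of the 19938 genes measured, 35 of complex I, 4 of complex II, 8 of complex III, 17 of complex IV and 17 of complex V. Of these, 8 are isoforms or paralogs with a restricted tissue pattern: Cox4i2, Cox6a2, Cox6b2, Cox7a1, Cox7b2, Cox8b, Cox8c and Ndufa4l2. Ndufb1, Cox7c, Ndufb4, Ndufb4b and Ndufb4c were not analysed here, because no probe set names them alone.

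The arrays held RNA of mouse glioblastomas raised by injection of Cre constructs, and of normal brain. Each tumor group is named by the promoter in the construct and by the brain region. The groups were GFAP-CRE tumors of the subventricular zone (SVZ, 3 arrays), NES-CRE tumors of the hippocampus (4 arrays), GFAP-CRE tumors of the hippocampus (7 arrays), SYN1-CRE tumors of the cortex (4 arrays), GFAP-CRE tumors of the cortex (4 arrays), normal hippocampus (4 arrays) and normal cortex (4 arrays). GFAP is a gene of astrocytes and neural stem cells, NES (nestin) of neural progenitors and SYN1 (synapsin) of neurons. Normal tissue carries no promoter, given as NULL. The altered genes, other alleles, strain and age are not given in the sources used here. No normal SVZ was analysed here, so the SVZ tumors were compared with the mean of the normal cortex and normal hippocampus groups. The labels do not say whether arrays of a group came from separate animals, so the spread behind every p-value is that between arrays and may be technical. All values are log2 array signals (a level printed as 10 or 11 is that whole number at 2 decimals), and differences are log2 differences, each with its standard error (SE) from limma.

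Complex I takes electrons from NADH and complex II takes them from succinate as a step of the tricarboxylic acid (TCA) cycle. Complex III passes them to cytochrome c, complex IV passes them to oxygen, and complex V uses the proton gradient so built to make ATP. Neurons depend on this route for most of their ATP, while gliomas, like many tumors, are known for high glucose uptake and lactate output. The transcription factors NRF1 and GABPA (an ETS factor) and the coactivator Ppargc1a are known to drive many of the subunit genes.

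Promoter sequence from 250 bases before to 50 bases after the gene start was found for 66 of the 81 genes in RefSeq's table (GRCm38.p6). Either strand was searched for 4 motifs. A gene with several promoters was counted once, as holding a motif if any of them did. The palindrome-like motif of NRF1 was present in 16 of the 66 genes (24.2%), against 5.19% of all 27025 genes with a promoter. The ETS motif CCGGAAG was present in 17 (25.8%, against 9.93% of all genes), the YY1 motif AAGATGGCG in 7 (10.6%, against 1.64%) and the TATA box TATAAA in 8 (12.1%, against 15.7%). An ETS motif can share its last letters, AAG, with the start of a YY1 motif. Complex V held the NRF1 motif in 6 of 15 genes with a promoter (40.0%). The stretches of 60 bases below, with the NRF1 motif in capitals, come from genes whose levels are described further on: Cox6a1 (chr5:115349086-115349145), Ndufs5 (chr4:123718250-123718309), Sdha (chr13:74350304-74350363) and Atp5g2 (chr15:102671055-102671114), all on the minus strand and written 5′ to 3′ along the gene. A motif match is a description of the sequence and no measure of binding.
Cox6a1: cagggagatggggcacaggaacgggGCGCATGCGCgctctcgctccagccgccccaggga
Ndufs5: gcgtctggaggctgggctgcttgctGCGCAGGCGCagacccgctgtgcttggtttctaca
Sdha: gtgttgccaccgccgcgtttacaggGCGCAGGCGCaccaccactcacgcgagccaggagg
Atp5g2: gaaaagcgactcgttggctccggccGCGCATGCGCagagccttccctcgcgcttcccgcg

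The 4 arrays that stood apart from the rest were GFAP cortex tumor 1 and GFAP hippocampus tumors 5, 6 and 7. Their values spanned a narrower range, with interquartile ranges of 1.88, 2.18, 2.40 and 2.29 on the log2 scale, against 2.45 to 3.03 on the other 26 arrays. Counts of called genes are therefore given over all 30 arrays and again without these 4, and a gene described below is given again where leaving them out changed a call printed for it or moved a called difference by over 1.5 times. Leaving them out changes the differences of their own groups, and for the other groups only the estimate of spread that all groups share. The mean level of 11 neuron markers was lower on every tumor array of the GFAP SVZ, GFAP hippocampus, SYN1 cortex and GFAP cortex groups than on any normal array, with mean differences from the normal arrays of -2.31, -1.85, -2.46 and -1.78. In the NES hippocampus group that difference was -0.69. Proliferation markers were higher by group means of 2.46 to 3.15, and microglia and macrophage markers by 1.70 to 2.04. Oligodendrocyte markers differed by -2.6 to -1.3 on the GFAP SVZ arrays and by -2.9 to -1.4 on the SYN1 cortex arrays. They ran from -3.7 to -0.5 in GFAP cortex, -2.0 to 0.1 in GFAP hippocampus and -1.1 to 0.1 in NES hippocampus tumors. GFAP cortex tumor 1 had -2.78 for astrocyte markers, against -1.48 to 0.88 on the other tumor arrays. Its mural cell and fibroblast markers lay at 2.30, against 0.095 to 1.42 on the others. In bulk tissue, fewer cells of a type and less RNA per cell cannot be told apart, and the part of the cell make-up in the results below was not tested.

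The mean level of the 73 subunit genes without the tissue isoforms was below that of the normal brain in most tumor arrays. Expressed as a difference from the mean of the 8 normal arrays, it was -0.28, -0.33 and -0.33 in the GFAP SVZ tumors, -0.26, -0.11, 0.12 and -0.32 in the NES hippocampus tumors, and -0.18, -0.57, -0.41 and -0.34 in the SYN1 cortex tumors. The GFAP hippocampus tumors lay at -0.14, -0.02, -0.01, -0.09, -0.36, -0.45 and -0.60, with tumors 5 to 7 the lowest. The GFAP cortex tumors lay at -1.14, -0.27, -0.47 and -0.37, with tumor 1 the lowest of all arrays, and the normal arrays between -0.19 and 0.14. The GFAP SVZ and GFAP cortex groups did not overlap with the normal arrays, while the other tumor groups did. The mean of all genes was also low on the 4 arrays that stood apart. It was -0.24, -0.26 and -0.28 in GFAP hippocampus tumors 5 to 7 and -0.29 in GFAP cortex tumor 1. All other arrays lay between -0.11 and 0.13. The part of this general shift in the subunit levels was not tested. On the same scale the neuron markers lay at -3.90 in GFAP cortex tumor 1, the lowest of all arrays, and at -1.40, -0.47, -0.18 and -0.70 in the NES hippocampus tumors.

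**Figure D1:**
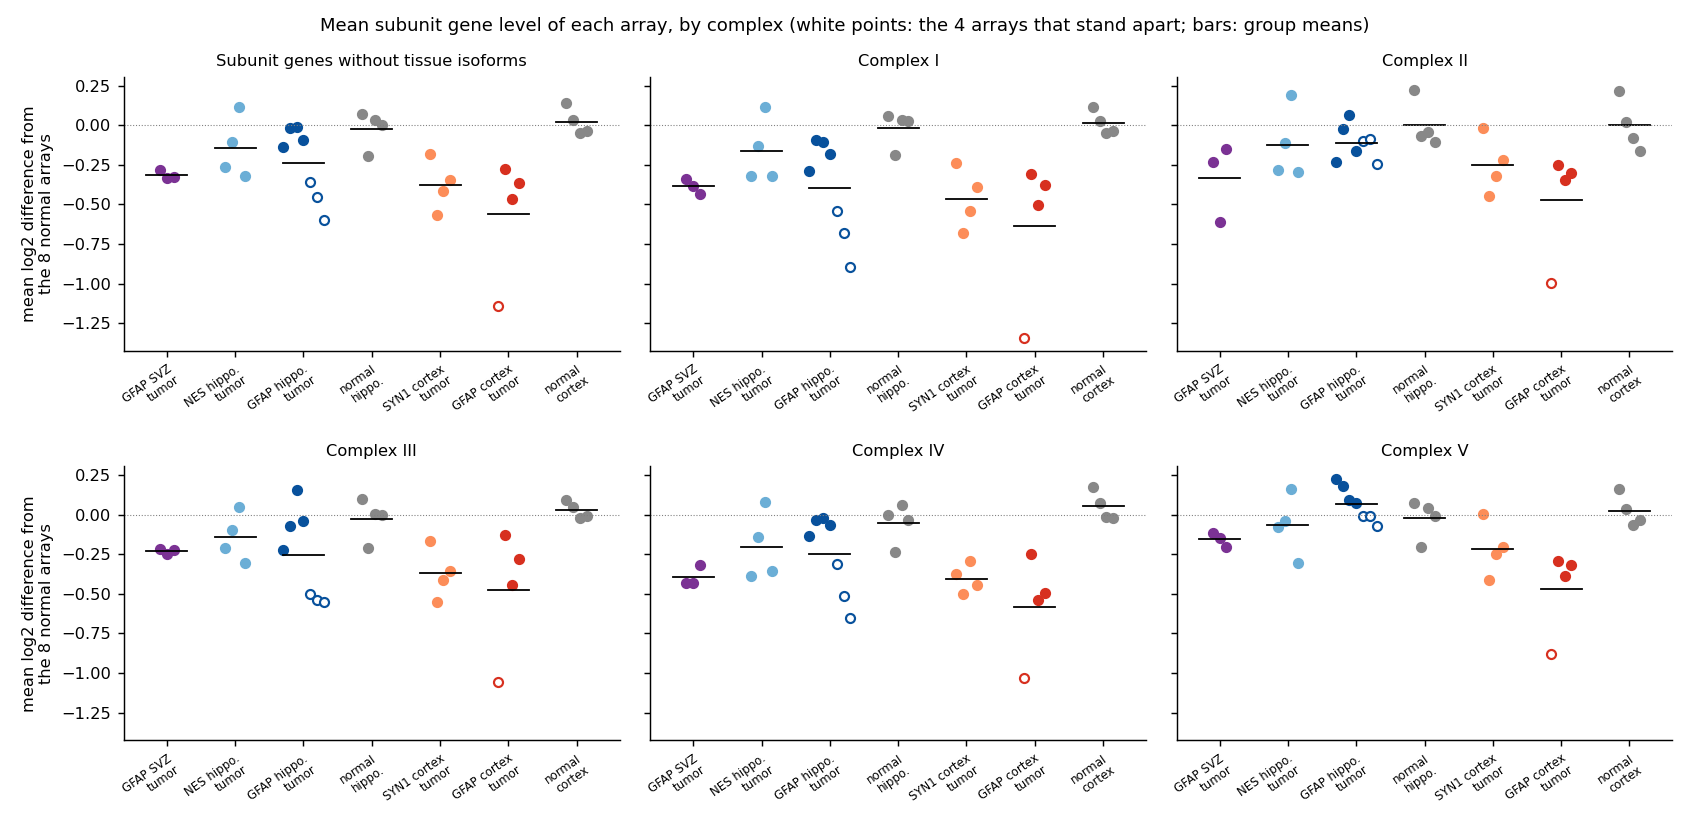
Mean log2 difference from the 8 normal arrays (vertical axis) for all subunit genes without the tissue isoforms and for each complex, 1 point per array and 1 column per group; bars are group means, and white points are the 4 arrays that stood apart. GFAP cortex tumor 1 lies lowest in the panel of all subunits, at -1.14, and the normal arrays lie between -0.19 and 0.14. Over all genes, not plotted, that tumor array lay at -0.29.

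In GFAP cortex tumors, the subunit genes that changed were lower than in normal cortex. Over all arrays 38 of the 81 genes were called lower and 0 higher by limma with Benjamini-Hochberg adjustment over all genes (adjusted p under 0.05), against 18.8% of all genes called lower and 9.0% higher. The median difference was -0.58 over the 81 genes, against -0.10 over all genes and -0.28 over the 3988 genes with the highest mean level, where 30.2% were called lower. These hold 60 of the 81 genes. The calls covered every complex: 17 of 35 genes in complex I, 2 of 4 in complex II, 4 of 8 in complex III, 7 of 17 in complex IV and 8 of 17 in complex V. All tumor arrays lay below all normal arrays for 51 genes, against 23.9% of all genes. In the fit without those 4 arrays, 37 genes were lower and 0 higher (20.5% and 12.9% of all genes), 27 of them called in both fits, and the median difference was -0.39. With quantile normalization of all arrays 11 genes were lower and the median was -0.18. The count was 15 without GFAP cortex tumor 1 alone and 22 without normal cortex 1 alone. Calls of 15 genes held whichever single array was left out: Ndufa9, Ndufa10, Ndufb3, Ndufb8, Ndufs5, Ndufs6, Ndufv1, Uqcr10, Uqcrc1, Cox5a, Cox5b, Cox6a2, Cox8a, Atp5b and Atp5j.

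In SYN1 cortex tumors, 25 genes were called lower than in normal cortex and 0 higher, against 20.5% of all genes called lower and 18.2% higher. These comprised 14 genes of complex I, 1 of complex II, 2 of complex III, 6 of complex IV and 2 of complex V. The median difference was -0.39 over the 81 genes and 0.05 over the 3988 genes with the highest mean level. All tumor arrays lay below all normal arrays for 42 genes, against 25.9% of all genes. With the spread estimated without the 4 arrays that stood apart, 44 genes were lower and 0 higher, against 25.6% and 23.1% of all genes. The count was 15 without SYN1 cortex tumor 2 and 16 without SYN1 cortex tumor 3. Calls of 14 genes held whichever single array was left out: Ndufa5, Ndufa9, Ndufb2, Ndufb3, Ndufb5, Ndufb8, Ndufb10, Ndufs5, Ndufv1, Uqcr10, Cox5b, Cox6a1, Cox6a2 and Cox8a.

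In GFAP SVZ tumors, 17 genes were called lower than the mean of the normal groups and 0 higher, against 21.4% and 16.2% of all genes. The share of lower calls was thus near that of all genes. The 17 were 9 genes of complex I, 2 of complex II, 4 of complex IV and 2 of complex V. The median difference was -0.28, against -0.02 over the 3988 genes with the highest mean level. For 35 genes all 3 tumor arrays lay below all 8 normal arrays, against 23.2% of all genes. Leaving out the 4 arrays that stood apart, 35 genes were lower and 4 higher, against 25.9% and 21.8% of all genes. The share of lower calls was then above that of all genes. The count of lower genes was 11 without GFAP SVZ tumor 1 and 9 without GFAP SVZ tumor 2. Calls of 7 genes held whichever single array was left out: Ndufa5, Ndufa9, Ndufb3, Ndufs5, Ndufv1, Cox4i1 and Cox6a2.

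In NES hippocampus tumors, 0 subunit genes were called higher and 0 lower than in normal hippocampus by limma, and 0 had an unadjusted p under 0.05 in either direction, against 21.9% of all genes. Of all genes, 5.69% were called higher and 2.86% lower. The median difference was -0.14, and 63 of the 81 differences were negative. All tumor arrays lay below all normal arrays for 3 genes, against 11% of all genes. Without the 4 arrays that stood apart, Cox8a (-0.41, limma adjusted p = 0.00362) and Ndufa10 (-0.38, limma adjusted p = 0.0223) were called lower and 0 genes higher, against 8.20% and 11.2% of all genes.

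In GFAP hippocampus tumors subunit genes were called in either direction. Over all arrays 22 genes were called lower and 6 higher than in normal hippocampus, against 25.2% and 16.1% of all genes. The share of lower calls was thus near that of all genes, and the share of higher calls was below it. Complex I held 14 of the lower and 2 of the higher calls, complex III 3 and 0, complex IV 3 and 1, and complex V 2 and 3. The median difference was -0.23. Every tumor lay below every normal array for 6 genes, against 17.8% of all genes. In the fit without the 4 arrays that stood apart, 10 genes were lower and 9 higher, against 26.4% and 26.0% of all genes, with 6 lower and 2 higher in both fits, and the median difference was -0.05. Both shares were then below those of all genes. Complex I then held 7 of the lower and 1 of the higher calls, and complex V held 0 and 6. Tumors 5 to 7 all lay below the other 8 hippocampus arrays, tumors 1 to 4 and the normal arrays, for 30 genes and above them for 9, against 16.9% and 2.46% of all genes. The count of lower genes was 10, 9 and 10 without normal hippocampus 1, 3 and 4, and 12 and 10 without GFAP hippocampus tumors 6 and 7. That of higher genes was 2 without normal hippocampus 2 and 3 without GFAP hippocampus tumor 6 or 7. Calls of 10 genes held whichever single array was left out: Ndufa10, Ndufa12, Ndufb3, Ndufb7, Ndufb8, Ndufb10, Uqcrh, Cox6a2, Cox8a and Atp5mpl. Single omissions never remove tumors 5 to 7 together. Without the 4 arrays that stood apart, Ndufa12, Ndufb7, Ndufb8, Ndufb10 and Uqcrh were not called (limma adjusted p from 0.0544 to 0.305).

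**Figure D2:**
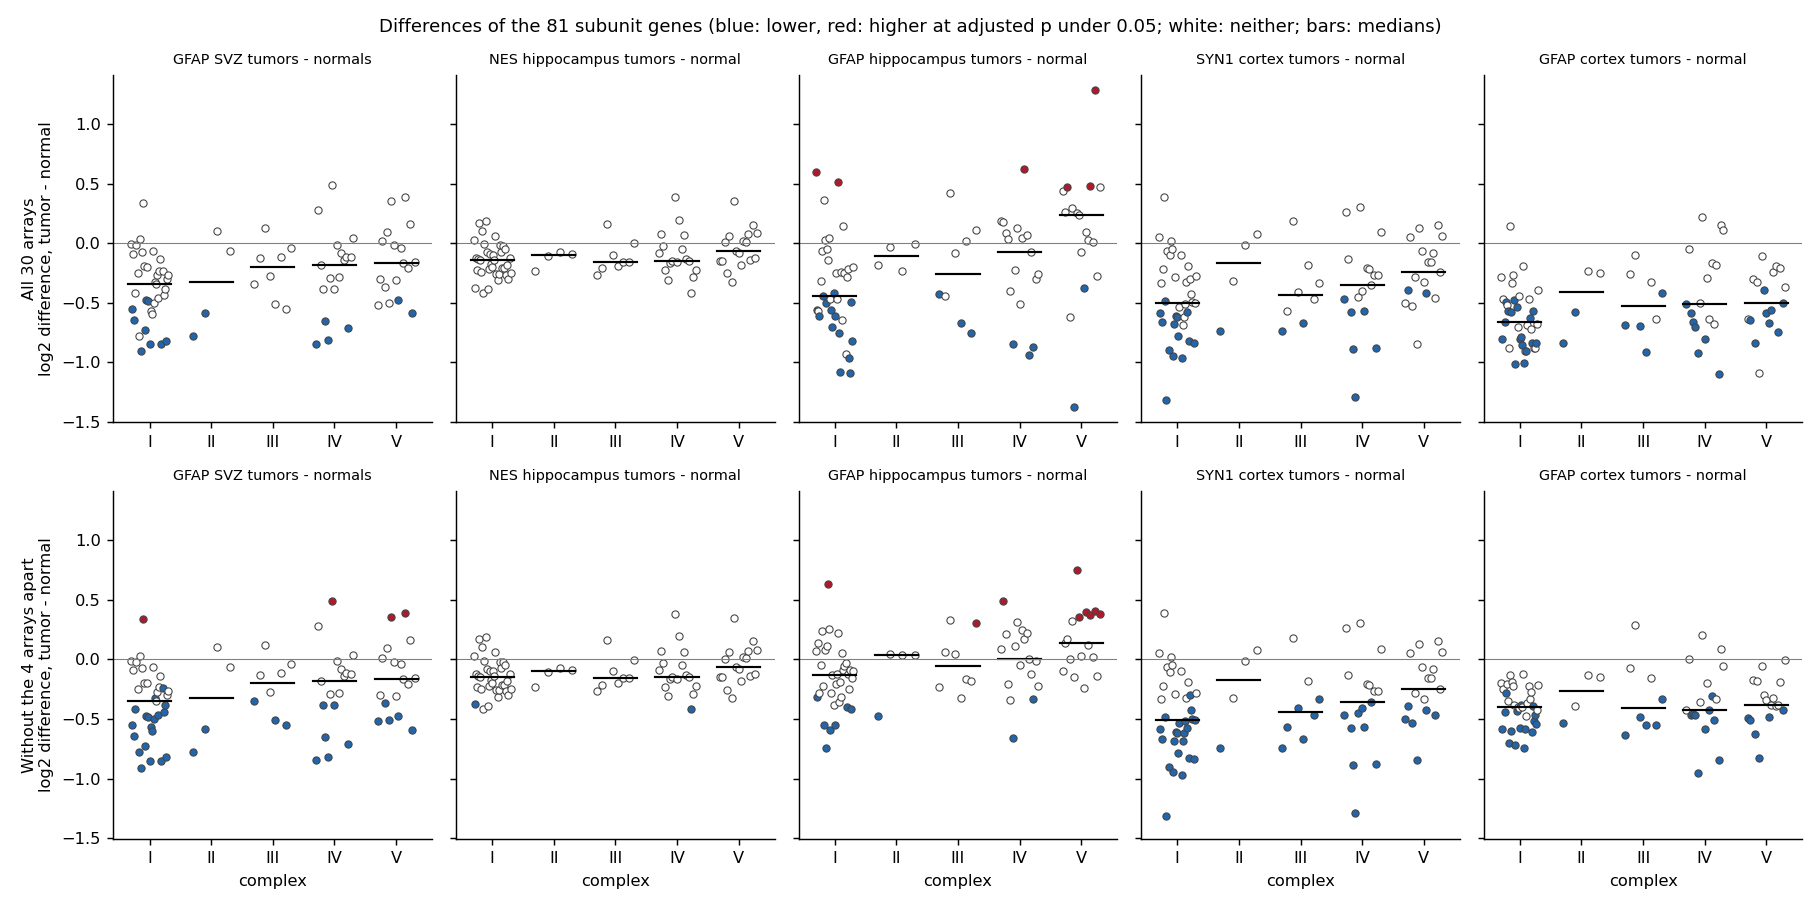
Log2 differences of the 81 subunit genes by complex (vertical axis) in 5 comparisons of tumors with normal brain, over all 30 arrays in the upper row and without the 4 arrays that stood apart in the lower row; blue points were called lower, red points higher, white points neither, and bars are medians. In GFAP cortex tumors the median over all members was -0.58 in the upper row and -0.39 in the lower row.

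Among the complex I genes, Ndufa9, an accessory subunit at the base of the peripheral arm, showed lower levels in the GFAP SVZ, SYN1 cortex and GFAP cortex tumors. Its level was 10.58, 10.42 and 10.29 in GFAP SVZ tumors, 10.57, 9.75, 9.97 and 10.44 in SYN1 cortex tumors and 9.24, 10.51, 10.56 and 10.17 in GFAP cortex tumors, against 11.33, 10.97, 11.25 and 11.17 in normal hippocampus and 11.36, 11.20, 10.97 and 11 in normal cortex. All of these tumor arrays lay below all normal arrays. The limma differences were -0.73 ± 0.22 (SVZ, adjusted p = 0.00911), -0.95 ± 0.23 (SYN1, adjusted p = 0.00144) and -1.01 ± 0.23 (GFAP cortex, adjusted p = 0.00184), the last being -0.72 without the 4 arrays that stood apart. In GFAP hippocampus tumors the level ran from 10.50 to 11.17 with a median of 10.64, and the difference of -0.46 was not called over all arrays (limma adjusted p = 0.0661). Without the 4 arrays that stood apart it was -0.59 and called (limma adjusted p = 0.0059), with every tumor below every normal hippocampus array.

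Ndufb8, an accessory subunit of the membrane arm, had 9.17, 8.82, 9.03 and 9.02 in SYN1 cortex tumors and 8.20, 9.24, 9.34 and 9.12 in GFAP cortex tumors, against 10.10, 10.02, 9.77 and 10.02 in normal cortex. Neither tumor group overlapped with normal cortex. The limma differences were -0.97 ± 0.26 (SYN1, adjusted p = 0.00332) and -1.0 ± 0.26 (GFAP cortex, adjusted p = 0.00456). In GFAP hippocampus tumors its level was 9.03, 9.81, 9.24, 9.59, 8.53, 8.50 and 8.41, against 9.57, 9.60, 9.84 and 10.07 in normal hippocampus. Tumors 5 to 7 were the lowest there, and the limma difference of -0.76 ± 0.23 (adjusted p = 0.00921) was -0.35 without the 4 arrays that stood apart (adjusted p = 0.0544).

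Ndufv1 carries the site where NADH is oxidised. Its level was 10, 9.72 and 10.04 in GFAP SVZ tumors, 10.12, 9.76, 9.81 and 9.98 in SYN1 cortex tumors and 9.01, 10.33, 10.24 and 10.07 in GFAP cortex tumors, against 10.98, 10.60, 10.65 and 10.67 in normal hippocampus and 11.09, 10.71, 10.59 and 10.61 in normal cortex. None of these tumor arrays reached the lowest normal array. The limma differences were -0.82 ± 0.21 (SVZ, adjusted p = 0.00298), -0.83 ± 0.22 (SYN1, adjusted p = 0.00355) and -0.84 ± 0.22 (GFAP cortex, adjusted p = 0.00594). The GFAP cortex difference was -0.54 without the 4 arrays that stood apart, of which tumor 1 belongs to that group, and was still called (limma adjusted p = 0.0232). In GFAP hippocampus tumors Ndufv1 ran from 9.82 to 10.40, below all normal hippocampus arrays, and was called lower both over all arrays (-0.50, limma adjusted p = 0.0453, lost on leaving out any of 12 single arrays) and without the 4 (-0.42, limma adjusted p = 0.0371). Ndufs1, which holds iron-sulfur clusters of the same arm, was not called in any of the 5 comparisons with normal brain over all arrays. Its differences were -0.46 in GFAP SVZ, -0.07 in NES hippocampus, 0.15 in GFAP hippocampus, -0.33 in SYN1 cortex and -0.47 in GFAP cortex tumors. Without the 4 arrays that stood apart the SVZ difference, with all tumors below all normal arrays, was called (limma adjusted p = 0.026).

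Accessory subunits of complex I gave the largest differences in the SVZ. Ndufa5 had 7.98, 7.72 and 8.09 in GFAP SVZ tumors, against 9.16, 8.62, 8.93 and 8.86 in normal hippocampus and 8.86, 8.73, 8.71 and 8.81 in normal cortex, a limma difference of -0.91 ± 0.20 (adjusted p = 0.000713). Ndufb3 had 7.65, 7.48 and 7.57 in GFAP SVZ tumors, against 8.28 to 8.61 in the normal arrays (-0.85 ± 0.18, limma adjusted p = 0.000556). Ndufs5, whose promoter stretch is shown above, had 7.65, 7.96 and 8.42, against 8.50 to 9.06 (-0.85 ± 0.21, limma adjusted p = 0.00194). For each of the 3 genes the SVZ tumors lay below every normal array.

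Both catalytic subunits of complex II fell in GFAP SVZ and GFAP cortex tumors, and its membrane anchors were not called in any comparison with normal brain. Sdha, the flavoprotein that oxidises succinate, had 10.98, 10.77 and 11.15 in GFAP SVZ tumors, 11.47, 10.81, 10.87 and 11.01 in SYN1 cortex tumors and 10.01, 11.38, 11.18 and 11.18 in GFAP cortex tumors, against 11.84, 11.59, 11.74 and 11.67 in normal hippocampus and 11.90, 11.83, 11.76 and 11.63 in normal cortex. All of these tumor arrays lay below the normal arrays. Its limma differences were -0.78 ± 0.24 (SVZ, adjusted p = 0.0121), -0.74 ± 0.25 (SYN1, adjusted p = 0.021) and -0.84 ± 0.25 (GFAP cortex, adjusted p = 0.0138). Without the 4 arrays that stood apart the differences were -0.78, -0.74 and -0.53, each called, and Sdha was also called lower in GFAP hippocampus tumors (-0.47, limma adjusted p = 0.0112, against -0.18 and no call over all arrays). Single arrays ended each call over all arrays: GFAP SVZ tumor 2 in the first, normal cortex 1 or SYN1 cortex tumor 2 or 3 in the second, and GFAP cortex tumor 1 in the third. Sdhb, the iron-sulfur subunit, had 9.61, 9.52 and 10.34 in GFAP SVZ tumors, against 10.17 to 10.70 in the normal arrays, so the third tumor array lay among them (-0.58 ± 0.19, limma adjusted p = 0.0147, not called without SVZ tumor 1 or 2). In GFAP cortex tumors its difference was -0.58 ± 0.20 (limma adjusted p = 0.0282), and -0.39 without the 4 arrays that stood apart (adjusted p = 0.116). That call was also lost without GFAP cortex tumor 1 or 3 or normal cortex 1, 2 or 3. The anchors Sdhc and Sdhd differed by -0.25 to 0.11 in the 5 comparisons.

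Of the 8 complex III genes, 4 were lower in GFAP cortex, 2 in SYN1 cortex and 3 in GFAP hippocampus tumors over all arrays. Uqcrc1, a core protein of the complex, had 9.74, 10.49, 10.63 and 10.59 in GFAP cortex tumors, against 11.15, 11.09, 11 and 10.97 in normal cortex, with no overlap (-0.69 ± 0.17, limma adjusted p = 0.00309). Uqcr10, a small accessory subunit, had 9.24, 9.05, 8.92 and 9.14 in SYN1 cortex tumors and 8.97, 9.03, 9.23 and 9.31 in GFAP cortex tumors, against 9.74, 9.83, 9.78 and 9.95 in normal cortex. Here GFAP cortex tumor 1 lay with its group, and the limma differences were -0.74 ± 0.16 (SYN1, adjusted p = 0.000435) and -0.69 ± 0.16 (GFAP cortex, adjusted p = 0.00199). The 3 genes called in GFAP hippocampus tumors were Uqcrh (-0.76, limma adjusted p = 0.0175), the core protein Uqcrc2 (-0.67, limma adjusted p = 0.0256) and Uqcr10 (-0.43, limma adjusted p = 0.0157). In the fit without those 4 arrays, these differences were -0.18, -0.32 and -0.23, and none was called. Uqcrh had 11.19, 11.57, 11.45, 10.89, 9.94, 9.95 and 9.93 there, against 11.50, 11.30, 11.54 and 11.50 in normal hippocampus, with tumors 5 to 7 the lowest. Uqcrfs1, the Rieske iron-sulfur protein, was not called in any comparison with normal brain, with differences of -0.33 to 0.02.

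In complex IV, Cox8a, a small structural subunit, was lower in 4 tumor groups. Its level was 12.04, 12.26 and 12.09 in GFAP SVZ tumors, 12.55, 12.52, 12.47, 12.33, 11.50, 11.17 and 11 in GFAP hippocampus tumors, 12.21, 11.79, 12.04 and 11.98 in SYN1 cortex tumors and 11.04, 12.00, 12.06 and 12.06 in GFAP cortex tumors, against 12.77, 12.67, 12.99 and 12.77 in normal hippocampus and 12.97, 12.91, 12.83 and 12.81 in normal cortex. No tumor array of these groups reached a normal array. The limma differences were -0.71 ± 0.26 (SVZ, adjusted p = 0.0341), -0.87 ± 0.24 (GFAP hippocampus, adjusted p = 0.00607), -0.88 ± 0.28 (SYN1, adjusted p = 0.0125) and -1.09 ± 0.28 (GFAP cortex, adjusted p = 0.0043). With the 4 arrays that stood apart left out, they were -0.71, -0.34, -0.88 and -0.84, each called. The SVZ call over all arrays was lost without normal hippocampus 3 or any 1 of the SVZ tumors. In NES hippocampus tumors the level was 12.33, 12.46, 12.53 and 12.23, also below all normal hippocampus arrays, and the difference of -0.41 was called only without those 4 arrays.

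Cox4i1 and Cox6a1 are further examples of the same complex. Cox4i1, the general isoform of the subunit through which ATP regulates the enzyme, had 9.81, 9.85 and 10.70 in GFAP SVZ tumors, against 10.71 to 11.01 in normal hippocampus and 10.98 to 11.18 in normal cortex (-0.84 ± 0.17, limma adjusted p = 0.000342). Its GFAP hippocampus tumors, from 10.76 to 11.36, overlapped with normal hippocampus and were not called (0.18, limma adjusted p = 0.378). Cox6a1 had 10.32, 10.45 and 10.67 in GFAP SVZ tumors and 10, 10.28, 10.56 and 10.49 in SYN1 cortex tumors, against 11.15 to 11.34 in normal cortex. The SYN1 difference was -0.89 ± 0.20 (limma adjusted p = 0.000671) and held whichever array was left out. In GFAP cortex tumors, with 9.79, 11.13, 10.58 and 10.57, it was -0.71 ± 0.20 (limma adjusted p = 0.00842), and was not called without tumor 1 of that group alone. Once the 4 arrays were left out, it was -0.46 and called (limma adjusted p = 0.0355).

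In complex V, Atp5b, the catalytic beta subunit, was lower in the cortex tumors. Its level was 13.12, 12.45, 12.67 and 12.66 in SYN1 cortex tumors and 12.08, 12.61, 12.60 and 12.63 in GFAP cortex tumors, against 13.23, 13.17, 13.06 and 13.02 in normal cortex. GFAP cortex tumors did not overlap with normal cortex (-0.64 ± 0.15, limma adjusted p = 0.00302), while SYN1 tumor 1 lay within it (-0.39 ± 0.15, limma adjusted p = 0.0438, a call lost on leaving out any of 8 single arrays). In GFAP hippocampus tumors the level was 13.49, 13.11, 13.11, 13.02, 13.50, 13.31 and 13.57, against 13.13, 12.80, 13.24 and 12.99 in normal hippocampus (0.26 ± 0.14, limma adjusted p = 0.13). The alpha subunit Atp5a1 was not called in any comparison with normal brain over all arrays. Its level was 12.12, 12.08, 12.20, 12.05, 13.62, 13.18 and 13.32 in GFAP hippocampus tumors, against 12.37, 12.09, 12.21 and 12.18 in normal hippocampus, so tumors 5 to 7 lay above and tumors 1 to 4 beside the normal arrays. After omission of the 4 arrays that stood apart, Atp5a1 was called lower in GFAP SVZ (-0.52, limma adjusted p = 0.00188), SYN1 cortex (-0.50, limma adjusted p = 0.00331) and GFAP cortex tumors (-0.49, limma adjusted p = 0.0129). The GFAP SVZ tumors did not overlap with the normal arrays of either region, and the GFAP cortex tumors did not overlap with normal cortex.

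The split among the GFAP hippocampus tumors ran in opposite directions in different genes of complex V. Atp5mpl, a small membrane subunit of the synthase, had 10.52, 10.81, 10.85, 10.68, 12.95, 12.60 and 12.72 in the tumors, against 10.41, 10.09, 10.34 and 10.39 in normal hippocampus. Every tumor array was above every normal array, and the limma difference of 1.28 ± 0.35 (adjusted p = 0.00473) was 0.41 without the 4 arrays that stood apart (adjusted p = 0.017). Atp5g1, one of 3 genes for the c subunit of the rotor ring, had 12.63, 12.33, 12.02, 12.17, 9.53, 9.38 and 9.38 in the tumors, against 12.44, 12.40, 12.50 and 12.40. Only tumors 5 to 7 were far below, and the limma difference of -1.37 ± 0.49 (adjusted p = 0.0265) was -0.15 without the 4 arrays that stood apart (adjusted p = 0.437), and the call was lost without any 1 of tumors 5 to 7 or of the normal hippocampus arrays. Atp5g2, another c-subunit gene, had 12.69, 12.14, 12.23, 12.25, 10.83, 11.20 and 11.45, against 11.69, 11.44, 11.63 and 11.54. Tumors 1 to 4 lay above the normal arrays, and the difference was 0.25 over all arrays and 0.75 without the 4 arrays that stood apart (limma adjusted p = 0.000141). Atp5g3, the remaining c-subunit gene, had 12.06, 11.84, 11.91 and 11.82 in tumors 1 to 4 and 11.48, 11.76 and 11.66 in tumors 5 to 7, against 11.59, 11.47, 11.63 and 11.52. Its difference of 0.24 was not called over all arrays (limma adjusted p = 0.105) and that of 0.36 was called without the 4 that stood apart (limma adjusted p = 0.0112). GFAP cortex tumor 1 was also low for Atp5g1 (10.58, others of its group 11.51 to 11.70). For Atp5mpl the GFAP cortex tumors had a mean of 10.09 with a standard deviation of 0.12.

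The same split appeared in complex I. Ndufs8, an iron-sulfur subunit, had 11.29, 10.94, 11.31 and 11.31 in GFAP hippocampus tumors 1 to 4 and 8.88, 8.83 and 8.90 in tumors 5 to 7, against 11.30, 11.29, 11.33 and 11.27 in normal hippocampus. Ndufb9, an accessory subunit, had 11.62, 11.53, 11.65 and 11.46, then 9.55, 9.44 and 9.45, against 11.71, 11.58, 11.85 and 11.88. In both genes tumors 5 to 7 lay far below the other hippocampus arrays. GFAP cortex tumor 1, which also stood apart, was low in its group too. It had 9.20 for Ndufs8 (others 10.73 to 10.95) and 9.97 for Ndufb9 (others 11.16 to 11.30). For Ndufa7 the GFAP cortex tumors had a mean of 9.03 with a standard deviation of 0.16. On these 4 arrays, effects of the array and of the tumor cannot be told apart. Ndufs8 differed by -1.09 ± 0.43 over all arrays (limma adjusted p = 0.0426) and by -0.09 without the 4 arrays that stood apart (adjusted p = 0.585), and the call was also lost without any 1 of tumors 5 to 7 or of the normal hippocampus arrays. Ndufb9 differed by -1.08 ± 0.38 (limma adjusted p = 0.0231) and by -0.19 without those 4 arrays (adjusted p = 0.223), a call also lost without tumor 6 or 7 or normal hippocampus 3 or 4. Ndufa7 had 9.50, 9.73, 9.74 and 9.91 in tumors 1 to 4 and 7.84, 8.03 and 7.88 in tumors 5 to 7, against 9.18, 8.96, 9.11 and 9.11. Its difference was -0.14 over all arrays and 0.63 without the 4 arrays that stood apart (limma adjusted p = 3.53e-05). Ndufa4, described as a subunit of complex IV as well as by its complex I name, had 9.72, 9.80, 10.04 and 9.36, then 12.43, 11.78 and 11.37, against 10.44, 10.14, 10.28 and 10.25. Its direction depends on these arrays, with a difference of 0.36 over all arrays (limma adjusted p = 0.494) and -0.55 without the 4 arrays that stood apart (limma adjusted p = 0.0383). In SYN1 cortex tumors Ndufa4 had 9.59, 8.95, 8.30 and 9.20, against 10.38, 10.29, 10.31 and 10.32 in normal cortex. No array overlapped there, and the limma difference of -1.31 ± 0.46 (adjusted p = 0.023) was not called without SYN1 cortex tumor 3 and was called without the 4 arrays that stood apart (-1.31, adjusted p = 2.30e-05). In the fit without the 4 it was also called lower in GFAP SVZ (-0.78, limma adjusted p = 0.00318) and GFAP cortex tumors (-0.70, limma adjusted p = 0.0255). Ndufa1, a membrane-arm subunit, had 7.96, 8.27, 8.17 and 8.04 in GFAP hippocampus tumors 1 to 4 and 9.60, 9.38 and 9.02 in tumors 5 to 7, against 8.34, 7.73, 7.94 and 8.14 in normal hippocampus. Its difference of 0.60 ± 0.24 (limma adjusted p = 0.0479) was lost on leaving out any of 21 single arrays, and was 0.07 without the 4 that stood apart (adjusted p = 0.688).

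**Figure D3:**
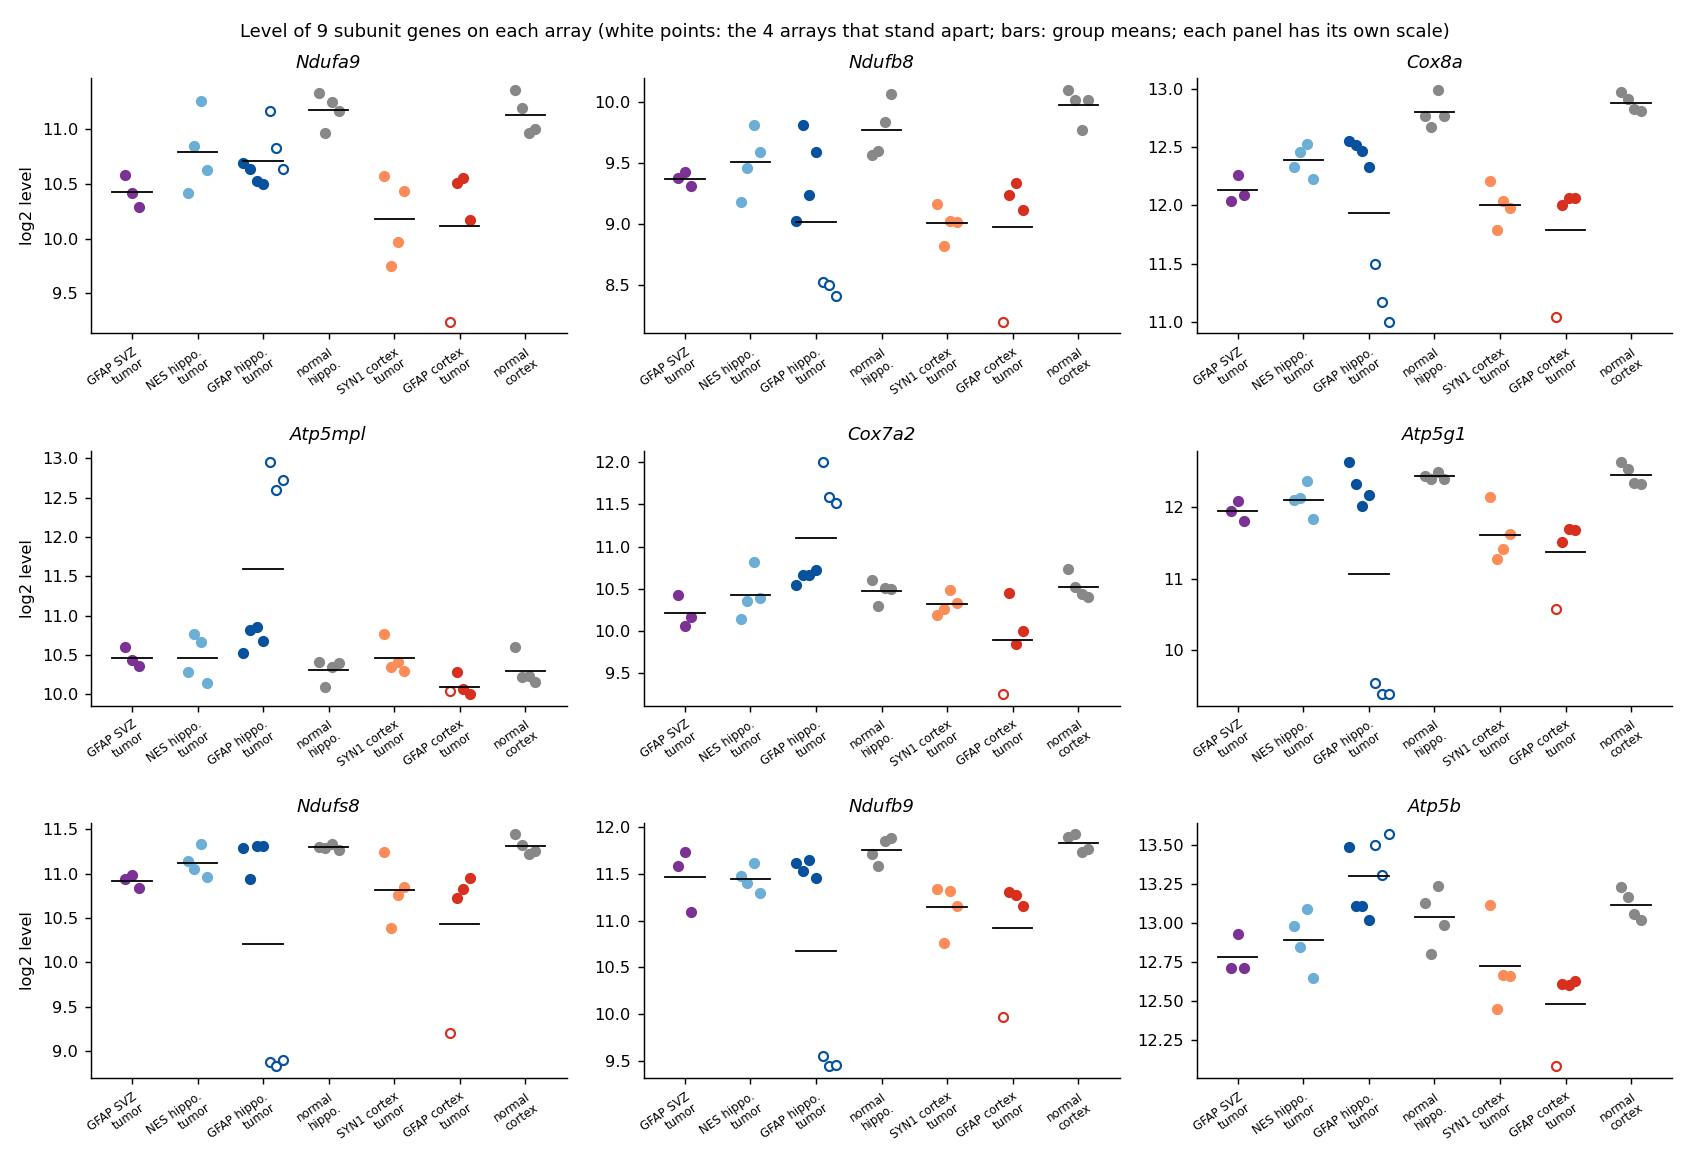
Log2 level per array (vertical axis) of 9 subunit genes, 1 point per array and 1 column per group; bars are group means, and white points are the 4 arrays that stood apart. The white points of the GFAP hippocampus tumors lie at 12.60 to 12.95 for Atp5mpl and at 9.38 to 9.53 for Atp5g1, above and below the rest of their group.

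Of the isoforms with a restricted tissue pattern, Cox6a2, the heart and muscle form of a complex IV subunit, was lower in 4 tumor groups. Its level was 7.89, 7.98 and 7.82 in GFAP SVZ tumors, 7.41, 8.61, 7.32, 7.75, 7.37, 7.28 and 7.36 in GFAP hippocampus tumors, 7.81, 7.58, 7.67 and 7.77 in SYN1 cortex tumors and 8.17, 7.75, 8.39 and 8.01 in GFAP cortex tumors, against 8.23, 8.55, 8.47 and 8.47 in normal hippocampus and 8.91, 9.06, 8.91 and 9.11 in normal cortex. GFAP hippocampus tumor 2 lay above all normal hippocampus arrays. The SVZ tumors did not overlap with the normal arrays of either region, and the cortex tumors did not overlap with normal cortex. The limma differences were -0.81 ± 0.20 (SVZ, adjusted p = 0.0015), -0.84 ± 0.18 (GFAP hippocampus, adjusted p = 0.000601), -1.29 ± 0.20 (SYN1, adjusted p = 1.84e-05) and -0.92 ± 0.20 (GFAP cortex, adjusted p = 0.0017), and each held whichever single array was left out. In NES hippocampus tumors, with 8.08, 8.66, 8.04 and 8.28, the difference was -0.16 (limma adjusted p = 0.69). The mean level of 6 skeletal muscle markers, set against the normal arrays, was 1.33 in GFAP cortex tumor 1 and 1.17 in GFAP cortex tumor 4, and between -0.40 and 0.12 on all other arrays. Of the 6, Myh4 was called higher in the GFAP cortex group (0.58, limma adjusted p = 0.0362), and the part of muscle RNA in the levels of the muscle isoforms was not tested.

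The remaining pairs gave few calls. Cox7a1, the heart and muscle partner of Cox7a2, had 7.91, 6.90, 7.15 and 7.15 in SYN1 cortex tumors, against 7.95, 7.89, 7.87 and 7.67 in normal cortex, and tumor 1 lay among the normal arrays (-0.57 ± 0.21, limma adjusted p = 0.0349, lost without any of normal cortex 1 to 3 or SYN1 cortex tumors 2 to 4). Cox7a2, the general form, had 10.54, 10.66, 10.66, 10.72, 12.00, 11.59 and 11.52 in GFAP hippocampus tumors, against 10.60, 10.29, 10.51 and 10.50 in normal hippocampus. Its difference of 0.62 ± 0.23 (limma adjusted p = 0.0308) was 0.17 without the 4 arrays that stood apart (adjusted p = 0.303), and the call was lost without any of normal hippocampus 2 to 4 or GFAP hippocampus tumors 5 to 7. Cox4i2, the form found in lung, had 7.95, 8.26, 8.24 and 8.44 in GFAP hippocampus tumors 1 to 4 and 7.36, 7.62 and 7.51 in tumors 5 to 7, against 7.95, 7.72, 7.70 and 7.56. It was called higher without the 4 arrays that stood apart (0.49, limma adjusted p = 0.0257). Cox8b and Ndufa4l2 were not called in any comparison with normal brain.

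**Figure D4:**
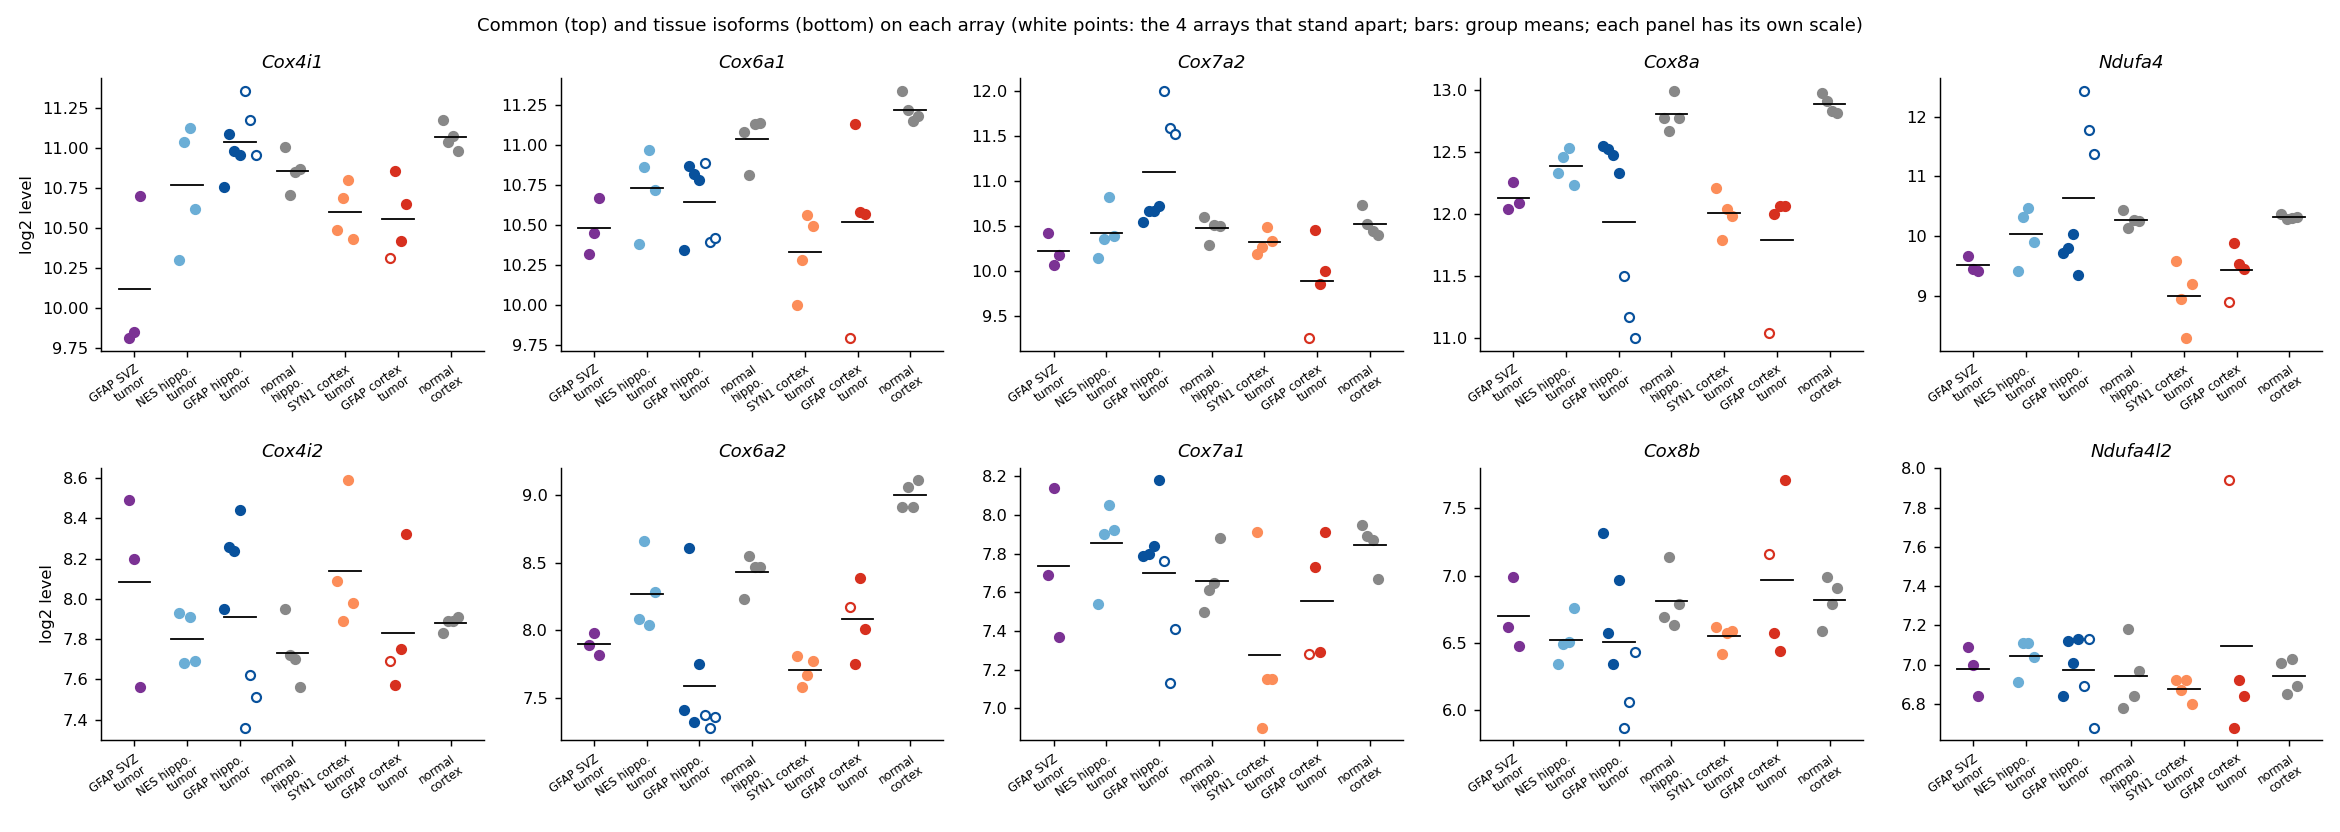
Log2 level per array (vertical axis) of 5 general subunits (top) and their restricted partners (bottom), 1 point per array and 1 column per group; bars are group means, and white points are the 4 arrays that stood apart. Cox6a2 lies at 7.58 to 7.81 in SYN1 cortex tumors and at 8.91 to 9.11 in normal cortex.

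Few subunit genes differed between tumor groups. SYN1 and GFAP cortex tumors gave 0 calls in either direction by limma, where 0.150% of all genes were called higher and 0.0251% lower, and 4 subunit genes had an unadjusted p under 0.05 (14.7% of all genes). Omitting the 4 arrays that stood apart again gave 0, against 5.55% and 7.77% of all genes. NES against GFAP hippocampus tumors gave 1 gene higher, Cox6a2, and 1 lower, Atp5mpl, against 6.12% and 2.09% of all genes, and leaving out single arrays ended each call. On leaving out the 4 arrays that stood apart, neither was called, and 0 genes were higher and 4 lower (10.4% and 10.8% of all genes). GFAP SVZ tumors gave 0 calls against GFAP cortex tumors (0.00502% of all genes higher, 0.00% lower) and 1 against GFAP hippocampus tumors, Cox4i1, which was lower (0.166% of all genes) and was not called without SVZ tumor 1 or 2. Leaving out the 4 arrays gave 2 higher and 0 lower against GFAP cortex tumors (4.74% and 7.1% of all genes), and 0 higher and 1 lower, again Cox4i1, against GFAP hippocampus tumors (0.166% and 0.507%). Normal hippocampus and normal cortex differed in 0 subunit genes, against 0.562% of all genes higher and 0.727% lower, and 1 subunit gene had an unadjusted p under 0.05 (5.74% of all genes). The fit without the 4 arrays also gave 0 (0.973% of all genes higher, 1.5% lower).

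GFAP tumors of the hippocampus and of the cortex did differ on the deposited values, but gave 0 calls with quantile normalization of all arrays. The ATP synthase held 7 of 12 calls over all arrays, and 8 of 17 without the 4 that stood apart. Of its genes, only Atp5b, Atp5g3 and Atp5mpl were called in both fits. Over all arrays 12 genes were called higher in hippocampus tumors and 0 lower, against 2.24% of all genes called higher and 0.441% lower, and 7 of the 12 were in complex V, whose median difference was 0.53. The calls were 2 genes of complex I, Cox7a2, Cox5b and Cox5a of complex IV, and Atp5mpl, Atp5a1, Atp5pb, Atp5b, Atp5md, Atp5c1 and Atp5g3. Atp5b was 0.82 ± 0.14 higher (limma adjusted p = 0.0055), and all 7 hippocampus tumors lay above all 4 cortex tumors, as they did for 10 subunit genes (1.23% of all genes, and 0.401% the other way). Cox5a had 10.84, 10.38, 10.52, 10.85, 10.28, 10.33 and 10.39 in GFAP hippocampus tumors, against 9.58, 10.25, 10.04 and 9.86 in GFAP cortex tumors, again with no overlap. In the fit without the 4 arrays that stood apart 17 genes were higher and 0 lower (8.49% of all genes higher, 2.0% lower), and complex V held 8 of its 17 genes with a median of 0.50. The 5 genes called in both fits were Atp5b, Atp5g3, Atp5mpl, Cox5a and Cox7a2. Atp5a1, at 1.04 over all arrays, was 0.35 there and not called (limma adjusted p = 0.106). Atp5c1, Atp5md, Atp5pb, Cox5b and the 2 genes of complex I also lost their calls. With the replicate number as a block, which leaves out hippocampus tumors 5 to 7, 20 genes were higher. With quantile normalization 0 genes were called, and 0 when only the arrays compared entered the fit. The count was 5 without GFAP cortex tumor 3, and 7 and 4 without GFAP hippocampus tumors 6 and 7. Atp5b, Atp5g3, Cox5a and Cox7a2 were called whichever single array was left out.

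The tumor difference in the hippocampus minus that in the cortex was also tested for each gene. Atp5b was the single call, with 0.90 ± 0.21 (limma adjusted p = 0.0266, against 0.341% of all genes called higher and 0.497% lower), and was not called without normal cortex 1 or 2 or normal hippocampus 2 or 4, nor without the 4 arrays that stood apart (0.65, adjusted p = 0.0707). With the 4 arrays that stood apart left out, 6 genes were called higher and 0 lower, against 1.74% and 0.953% of all genes: Ndufa7 (0.86), Atp5g2 (0.81), Atp5j2 (0.78), Cox5a (0.68), Atp5g3 (0.65) and Uqcrq (0.64).

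The related gene lists are read against the shares of all genes called. Over all arrays these were 21.4% lower and 16.2% higher in GFAP SVZ, 2.86% and 5.69% in NES hippocampus, 25.2% and 16.1% in GFAP hippocampus, 20.5% and 18.2% in SYN1 cortex and 18.8% and 9.0% in GFAP cortex tumors. Once the 4 arrays were left out, they were 25.9% and 21.8%, 8.20% and 11.2%, 26.4% and 26.0%, 25.6% and 23.1%, and 20.5% and 12.9% in the same order of groups. Of 13 assembly factors of complex I, 6 were lower in GFAP SVZ, 1 in NES hippocampus, 5 in GFAP hippocampus, 5 in SYN1 cortex and 5 in GFAP cortex tumors, and 1 was higher, in GFAP hippocampus tumors. After omission of the 4 arrays that stood apart, 7, 2, 6, 6 and 3 were lower in that order. Ecsit, one of the 13, differed by -1.06 ± 0.15 in GFAP SVZ (limma adjusted p = 7.67e-06), -0.81 ± 0.14 in GFAP hippocampus (limma adjusted p = 6.68e-05), -0.75 ± 0.16 in SYN1 cortex (limma adjusted p = 0.000436) and -0.97 ± 0.16 in GFAP cortex tumors (limma adjusted p = 0.000125). Of 27 assembly factors, which help build complexes II to V, 5, 0, 7, 4 and 7 were lower in the same order of groups, shares near those of all genes, and 10, 2, 8, 9 and 5 without the 4 arrays. Lyrm7 and Ttc19, which act on the Rieske protein of complex III, differed by -1.09 and -1.06 in GFAP SVZ, -1.18 and -1.02 in GFAP hippocampus, -1.14 and -1.03 in SYN1 cortex and -1.11 and -0.94 in GFAP cortex tumors. The calls of Ecsit, Lyrm7 and Ttc19 in these 4 groups held whichever single array was left out and without the 4 arrays that stood apart.

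The TCA cycle feeds NADH and succinate to the chain. Of 17 genes for its enzymes, 8 were lower and 2 higher in GFAP SVZ, 0 and 1 in NES hippocampus, 4 and 2 in GFAP hippocampus, 8 and 2 in SYN1 cortex and 10 and 1 in GFAP cortex tumors. The share of lower calls was above that of all genes in GFAP SVZ, SYN1 cortex and GFAP cortex tumors and near it in GFAP hippocampus tumors. After omission of the 4 arrays the counts were 10 and 2, 2 and 2, 6 and 3, 10 and 2, and 10 and 1. Idh3b, of the NAD-linked isocitrate dehydrogenase, fell by 0.89 in GFAP SVZ, 0.72 in GFAP hippocampus, 0.89 in SYN1 cortex and 1.05 in GFAP cortex tumors. Idh2, the NADP-linked enzyme, rose by 0.67, 0.97, 1.12 and 0.83 in the same groups, the first of these calls being lost without GFAP SVZ tumor 1 or 2. Of 21 genes for carriers, import and mitochondrial mass, 5 were lower and 4 higher in GFAP SVZ, 0 and 0 in NES hippocampus, 3 and 6 in GFAP hippocampus, 5 and 3 in SYN1 cortex and 7 and 1 in GFAP cortex tumors. With the 4 arrays that stood apart left out, they were 6 and 5, 0 and 2, 4 and 10, 6 and 7, and 7 and 3. The chaperone Hspa9 rose by 0.61 in GFAP SVZ, 0.98 in GFAP hippocampus and 0.70 in SYN1 cortex tumors, while the channel Vdac1 fell by 0.65 in GFAP SVZ (a call lost without SVZ tumor 1 or 3), 0.92 in GFAP hippocampus, 0.87 in SYN1 cortex and 0.87 in GFAP cortex tumors. Once the 4 arrays were left out, Vdac1 differed by -0.56 in GFAP hippocampus tumors and was still called. Of 77 mitochondrial ribosome genes, 13 were higher and 6 lower in GFAP hippocampus tumors, and 32 and 4 without the 4 arrays that stood apart. The first count of higher genes is near the share of all genes, and the second is above it. Both counts of lower genes are below the shares of all genes.

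The list of 14 regulators of mitochondrial biogenesis was not lower as a whole outside the 4 arrays that stood apart. Its mean difference from the normal arrays ran from -0.069 to 0.309 on the other tumor arrays. On the 4 it ran from -0.604 to -0.285. Among the 14, Ppargc1a was lower in 4 tumor groups. Its level was 7.23, 7.78 and 8.61 in GFAP SVZ tumors, 7.80, 9.40, 8.57, 8.10, 8.15, 7.79 and 6.66 in GFAP hippocampus tumors, 7.67, 8.37, 6.59 and 7.70 in SYN1 cortex tumors and 6.12, 10.08, 9.36 and 8.78 in GFAP cortex tumors, against 10.36, 10.28, 10.44 and 10.45 in normal hippocampus and 10.61, 10.76, 10.54 and 10.52 in normal cortex. All of these tumor arrays lay below all normal arrays. The limma differences were -2.62 ± 0.55 (SVZ, adjusted p = 0.000399), -2.32 ± 0.51 (GFAP hippocampus, adjusted p = 0.000723), -3.02 ± 0.57 (SYN1, adjusted p = 0.000132) and -2.02 ± 0.57 (GFAP cortex, adjusted p = 0.00941). The last was not called without GFAP cortex tumor 1 alone, and was -1.20 and called without the 4 arrays that stood apart (limma adjusted p = 0.0267). In NES hippocampus tumors, with 8.77, 9.78, 10.28 and 9.84, the difference of -0.72 was not called (limma adjusted p = 0.5). Ppargc1b fell by 1.23, 1.13, 1.19 and 0.89 in the same 4 groups, and Myc rose by 2.50, 1.93, 2.73 and 2.36. Nrf1 and Tfam were not called except Nrf1 in SYN1 cortex tumors (0.47, limma adjusted p = 0.0331, lost without any of 6 single arrays). After omission of the 4 arrays that stood apart, Nrf1 was called higher in GFAP SVZ (0.32), NES hippocampus (0.29), GFAP hippocampus (0.53) and SYN1 cortex tumors (0.47), and Tfam in none. Neuron markers were lower on the same arrays, and their part in the Ppargc1a difference was not tested.

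Of 19 glycolysis genes, 6 were higher and 6 lower in GFAP SVZ, 2 and 1 in NES hippocampus, 8 and 1 in GFAP hippocampus, 6 and 6 in SYN1 cortex and 4 and 8 in GFAP cortex tumors. After omission of the 4 arrays the counts were 8 and 6, 5 and 1, 8 and 3, 7 and 7, and 4 and 7. Hk2, the hexokinase that binds the mitochondrial surface, rose by 1.81, 2.19, 2.13 and 1.75 in GFAP SVZ, GFAP hippocampus, SYN1 cortex and GFAP cortex tumors. The lactate exporter Slc16a3 rose by 2.36, 2.59, 2.35 and 1.81 in those groups, while Eno2, the neuronal enolase, fell by 2.58, 1.83, 2.81 and 2.44, the last being -1.58 and called without the 4 arrays. Ldha, which makes lactate, was 1.00 higher in GFAP hippocampus tumors (limma adjusted p = 0.000113), 0.59 in GFAP SVZ (limma adjusted p = 0.019, lost without SVZ tumor 1 or 2) and 0.57 in SYN1 cortex tumors (limma adjusted p = 0.0287, lost without any of 5 single arrays), and differed by 0.04 in GFAP cortex tumors (limma adjusted p = 0.918).

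**Figure D5:**
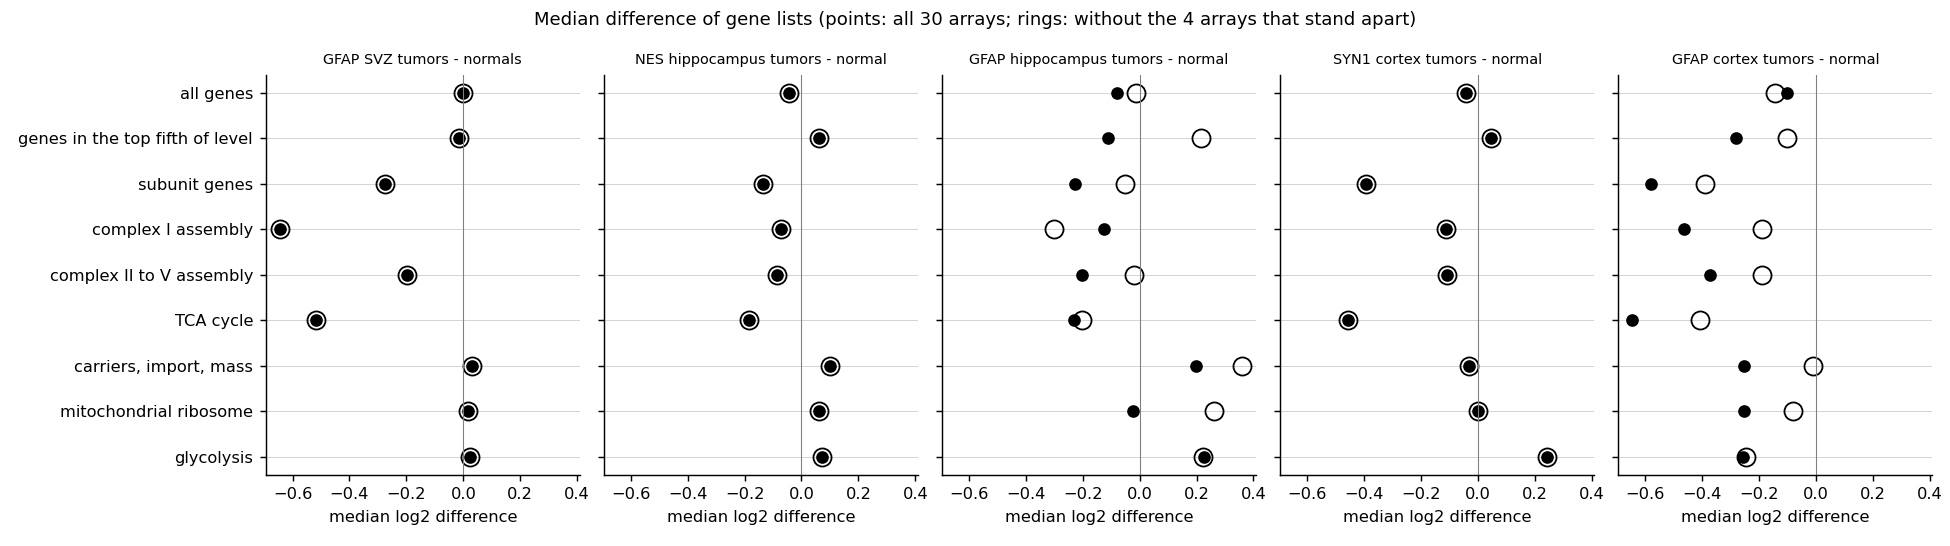
Median log2 difference from normal brain (horizontal axis) of the subunit genes, related gene lists and all genes in 5 comparisons; points use all 30 arrays, rings leave out the 4 that stood apart. The subunit genes lie at -0.58 in GFAP cortex tumors over all arrays and at -0.39 without the 4, against -0.10 for all genes over all arrays.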

How the data were processed

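Deposited log2 expression values of 35556 probe sets on 30 whole-transcript arrays were used as given. Affymetrix Power Tools, MAS5 and RMA appear in the submitters' processing notes; their order, and how arrays were scaled to each other, are not given in the sources used here. Array medians ran from 7.03 to 7.30. A symbol was given by 1 gene for 21789 probe sets, by several for 1621 and by none for 12146, which left 19938 genes. Group means of all 7 groups were fitted with limma 3.58.1 (R 4.3.3), with Benjamini-Hochberg adjustment over all genes in each of 12 comparisons and calls at an adjusted p under 0.05; the number of arrays limits the precision. In data simulated from these arrays, 63 of 100 genes changed by 1 on the log2 scale, and 9 of 100 changed by 0.5, were called in GFAP cortex tumors among 19938 genes. Only these genes were changed there, while 18.8% of all genes were called lower and 9.00% higher in the measured arrays. The adjustment is stricter when fewer genes change, so these rates do not give the share of changed genes called above.

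The subunit genes, gene lists and tests were chosen with earlier results of these data known. Named genes are up to 3 with the largest called difference in each direction per comparison, a set of core subunits and the isoform pairs; further genes were chosen after their values were seen. Replicate numbers were checked as pairs: only GFAP hippocampus against GFAP cortex tumors had every pair's correlation over 0.1 (0.277 to 0.306), and without the 4 arrays that stood apart these ran from -0.234 to 0.411, with 2 of 3 over 0.1; the numbers come from the labels. Alternatives were quantile normalization, median centring, a filter on low genes, fits on the compared arrays, trend and robust settings, a replicate block, a stricter threshold and leaving out arrays. Leaving out tumors 5 to 7, and quantile normalization without the 4 arrays that stood apart, were added after seeing the data.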

Additional observations from a re-analysis of the deposited data

Results flagged for a closer look

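Among 210 groups of 4 to 10 arrays tested for a value far from the rest, 12 held one, and chance gives about 1 in 20. GFAP cortex tumor 1 accounts for 9 of them, being low in the mean level of complex II (9.74, others 10.39 to 10.48) and of complex V (10.43, others 10.92 to 11.01). It was also low for Cox8a (11.04, others 12.00 to 12.06), Atp5g1 (10.58, others 11.51 to 11.70), Ndufs8 (9.20, others 10.73 to 10.95) and Ndufb9 (9.97, others 11.16 to 11.30). The same array was low for Atp5b (12.08, others 12.60 to 12.63), Sdha (10.01, others 11.18 to 11.38) and Uqcrc1 (9.74, others 10.49 to 10.63). The other values were a low mean level of complex I in normal hippocampus 2 (10.11, others 10.33 to 10.36), a high Cox6a2 in GFAP hippocampus tumor 2 (8.61, others 7.28 to 7.75) and a high Uqcrc1 in NES hippocampus tumor 3 (11.17, others 10.72 to 10.78).

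The tumor difference of Atp5b was 0.90 higher in the hippocampus than in the cortex for GFAP tumors (limma adjusted p = 0.0266), which was the one subunit gene whose tumor difference was called different between the regions over all arrays. Without the 4 arrays that stood apart it was 0.65 and not called (adjusted p = 0.0707).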

How the results depend on the processing

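The counts of called subunit genes depended on scaling and on the 4 arrays that stood apart; the causes were not tested. They are given here, where they moved by over 1.5 times, as higher and lower calls per comparison. Quantile normalization of all arrays gave 11 lower in GFAP cortex, 1 higher in SYN1 cortex, 10 higher in GFAP hippocampus and 2 higher in GFAP SVZ tumors, 3 higher and 4 lower in NES against GFAP hippocampus tumors, and 0 in GFAP hippocampus against GFAP cortex tumors and in the difference between regions. Quantile normalization without the 4 arrays gave 2 higher and 14 lower in GFAP cortex, 2 higher in SYN1 cortex, 1 higher and 5 lower in NES hippocampus, 5 higher and 33 lower in GFAP SVZ tumors. Under that setting SYN1 against GFAP cortex tumors gave 1 higher and 9 lower, NES against GFAP hippocampus 3 higher, GFAP hippocampus against GFAP cortex 1 higher, SVZ against GFAP cortex 2 higher, and SVZ against GFAP hippocampus 0. Without the 4 arrays alone, 44 were lower in SYN1 cortex, 10 in GFAP hippocampus, 2 in NES hippocampus and 35 in GFAP SVZ tumors (4 higher), with 0 higher and 4 lower in NES against GFAP hippocampus, 2 higher in SVZ against GFAP cortex and 6 higher in the difference between regions. Without GFAP hippocampus tumors 5 to 7, these were 4 lower in GFAP hippocampus, 3 higher in SVZ, 1 higher in SYN1 against GFAP cortex, 0 and 2 in NES against GFAP hippocampus, 27 in GFAP hippocampus against GFAP cortex, 1 in SVZ against GFAP cortex, 0 in SVZ against GFAP hippocampus and 7 in the difference between regions. Fits on the compared arrays alone gave 45 lower in SYN1 cortex, 2 higher and 8 lower in GFAP hippocampus, 1 lower in NES, 4 higher and 44 lower in SVZ tumors, 2 lower in normal hippocampus against normal cortex, and 0 in the other tumor comparisons and in the difference between regions. An adjusted p under 0.01 gave 16 lower in GFAP cortex, 10 in SYN1 cortex, 5 in GFAP hippocampus (1 higher) and 9 in SVZ tumors, 3 higher in GFAP hippocampus against GFAP cortex, and 0 in NES and SVZ against GFAP hippocampus and between regions. Centring each array on its median gave 2 lower in NES, 1 higher in SVZ, 1 higher in SYN1 against GFAP cortex, 0 and 8 in NES against GFAP hippocampus, 22 in GFAP hippocampus against GFAP cortex and 2 between regions. It moved the median of all genes in NES tumors to -0.20 and that of subunit genes to -0.29, from -0.04 and -0.14. A filter that drops the dimmest 30% of genes gave 1 higher in SVZ, and trend and robust settings gave 0 between regions.

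Taking the replicate number as a block gave 4 lower in GFAP hippocampus, 2 higher in SVZ and 0 and 3 in NES against GFAP hippocampus. It gave 20 in GFAP hippocampus against GFAP cortex, 0 in SVZ against GFAP hippocampus and 6 between regions. In comparisons other than GFAP hippocampus against GFAP cortex, the pairs' correlations ran from -0.394 to 0.565. The labels do not say whether the numbers pair samples in any comparison, and these correlations cannot decide it.

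Leaving out 1 array at a time gave 15 to 41 lower in GFAP cortex, 15 to 30 in SYN1 cortex, 9 to 26 lower and 2 to 8 higher in GFAP hippocampus, 0 to 0 in NES hippocampus, and 9 to 22 lower and 0 to 2 higher in SVZ tumors. Between tumor groups it gave 0 to 3 higher and 0 to 7 lower in NES against GFAP hippocampus, 4 to 14 higher and 0 to 1 lower in GFAP hippocampus against GFAP cortex, 0 to 1 higher in SVZ against GFAP cortex, 0 to 2 lower in SVZ against GFAP hippocampus, and 0 to 2 between regions. Normal hippocampus against normal cortex gave 0 to 1. Over 145 results on single genes, these omissions left 4221 of 4350 on the same side of the threshold and reversed 0. The 145 include results that were not called over all arrays. Among called subunit genes, the call held in every omission for 15 of 38 in GFAP cortex and 14 of 25 in SYN1 cortex tumors. It held for 10 of 28 in GFAP hippocampus and 7 of 17 in GFAP SVZ tumors. Ndufa4 in GFAP hippocampus tumors changed sign to -0.55 without the 4 arrays and -0.62 with quantile normalization as well.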
